A study of Mus musculus with 6 samples.

Results

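The respiratory chain of the inner mitochondrial membrane is built from subunits of 2 genomes, and the genes described here are those of the nucleus. They were chosen by symbol: every name in the deposited table that begins with Nduf followed by a, b, c, s or v and a digit, Sdha to Sdhd, every name that begins with Uqcr, Cox4 to Cox8 or Atp5, and Cyc1 and Cycs, with 6 names of pseudogenes ending in -ps left out. The rule gave 86 of the 51803 symbols in the table. Grouped by name, 37 belong to complex I, 4 to complex II, 9 to complex III, 1 to cytochrome c, 18 to complex IV and 17 to ATP synthase. The grouping follows the symbols, so Ndufa4, now known as a subunit of complex IV, stands with complex I, and Atp5s and Atp5sl, which are not core subunits of ATP synthase, stand with it.

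Complex I takes electrons from NADH and complex II takes them from succinate. Complex III passes them by way of cytochrome c to complex IV, which reduces oxygen, and ATP synthase uses the proton gradient that complexes I, III and IV build. Kidney tubules, above all the proximal tubule and the thick ascending limb, are dense in mitochondria because sodium reabsorption consumes much ATP. A core of complexes I, III, IV and ATP synthase is encoded by mitochondrial DNA, whereas complex II is nuclear throughout.

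Kidneys of an inbred strain were sampled through a day. Each of the 6 groups is 1 library of total RNA from male BALB/c mice of 8 postnatal weeks, taken at zeitgeber time (ZT, hours into the light/dark cycle) 0, 4, 8, 12, 16 or 20. Whether a library holds 1 kidney or a pool is not given in the sources used here, and no time was repeated, so a library that stands apart cannot be told apart from its time of day. In whole kidney, a change in the share of a cell type and a change of RNA per cell cannot be told apart either. The unit is FPKM, which divides fragments by the length of the transcript and by the mapped total of its library; the transcripts of each symbol were added, and the read depth behind them is unknown.

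The libraries summed to 534448 to 577493 FPKM. The 12 proximal tubule markers were all above a mean of 1 FPKM and summed to 3927 to 4298 FPKM, while the 8 skeletal and heart muscle markers summed to 0.127 to 0.733 FPKM. In a principal component analysis of all genes tested, ZT4 lay apart on the third component (19.1% of the variance, score 0.70 against -0.40 to 0.41), and ZT16 and ZT20 lay apart from the rest on the first. At ZT4 the markers of the thick ascending limb summed to 1240 FPKM, below their 1442 to 1766 FPKM in the other libraries, and those of the collecting duct summed to 320 against 356 to 471 FPKM. Those of the proximal tubule summed to 4241 FPKM, inside their range at the other times, with a median 0.12 above their gene means on the log2 scale. Markers of a list did not all move together. Lowest at ZT4 were 4 of 5 of the thick ascending limb, 5 of 12 of the collecting duct and 1 of 12 of the proximal tubule, where 25.8% of all genes tested were. Blood markers ranged from 124 FPKM at ZT8 to 314 FPKM at ZT16, and podocyte markers from 25.3 FPKM at ZT12 to 77.8 FPKM at ZT20. The part of these shifts in the results below was not tested.

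Together the 86 genes made up 3.31% to 3.64% of all FPKM at the times other than ZT4, and 2.82% at ZT4. Of the 86, 81 had a mean of at least 1 FPKM and entered the tests: 36 of complex I, 4 of complex II, 9 of complex III, cytochrome c, 14 of complex IV and 17 of ATP synthase. The 5 that did not are Ndufs3, a core subunit of complex I, and 4 isoforms of complex IV subunits (Cox4i2, Cox6a2, Cox7b2 and Cox8c). The median of the gene means was 101 FPKM in complex I, 204 in complex II, 262 in complex III, 259 in complex IV and 271 in ATP synthase. Atp5b, the catalytic beta subunit of ATP synthase, had the highest mean, at 1995 FPKM.

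**Figure D1:**
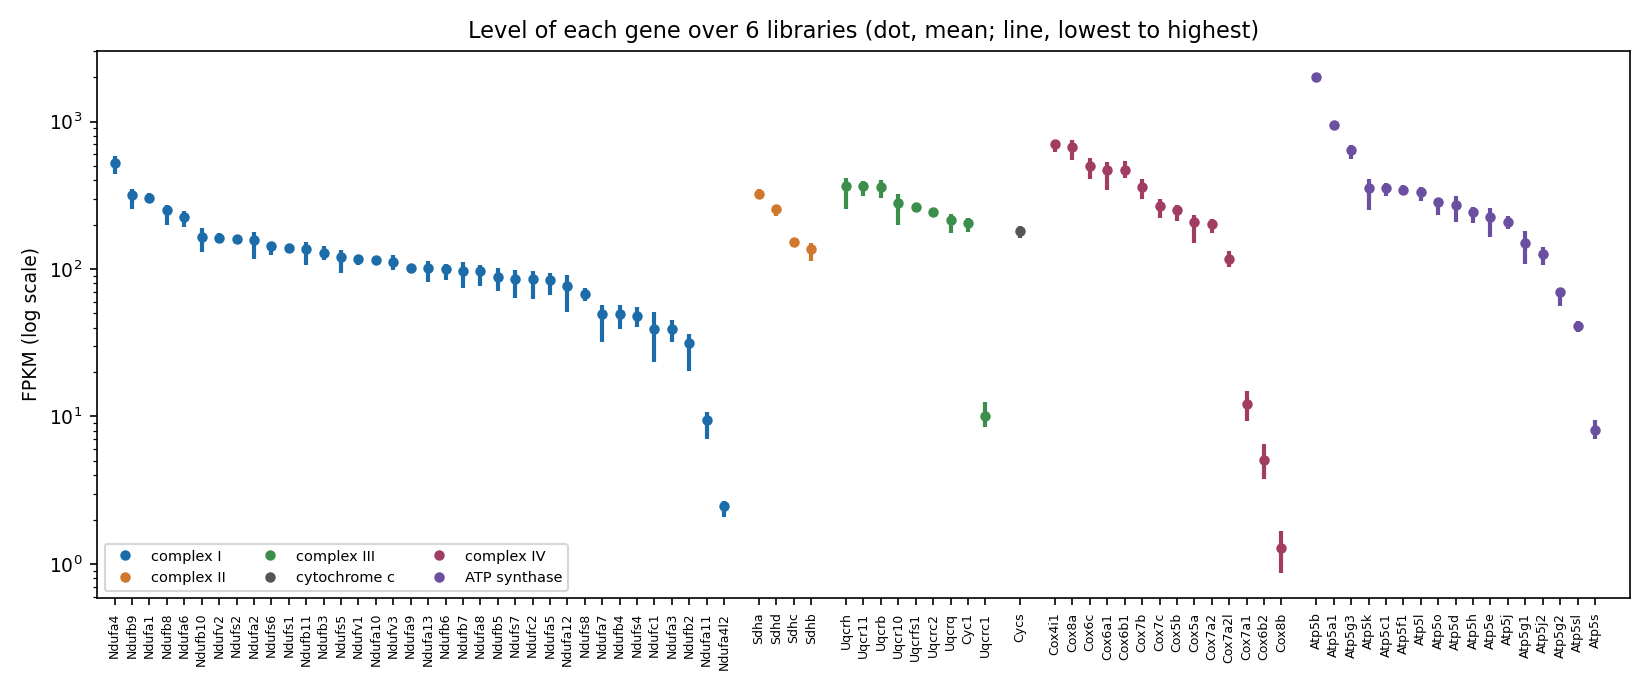
Mean FPKM of the 81 tested genes (dots, log scale) with the lowest and highest of the 6 libraries (vertical lines), ordered by level within each complex. Most genes sit between Ndufb2 (31.4 FPKM) and Cox4i1 (706 FPKM), with Atp5b at 1995 FPKM on top and Ndufa4l2, Uqcrc1, Ndufa11, Cox7a1, Cox6b2, Cox8b and Atp5s far below the other members of their complexes.

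The pattern that most members shared was a low level in the ZT4 library. Of the 81 tested genes, 68 (84.0%) had their lowest value at ZT4, where 25.8% of all 12709 genes tested did. These were 31 of 36 genes of complex I, 3 of 4 of complex II, 8 of 9 of complex III, 12 of 14 of complex IV and 14 of 17 of ATP synthase. The median member stood at 80.6% of its mean in the other 5 libraries, against 96.8% over all genes tested. In 60 of the 81 the ZT4 value was more than 2 SD below the mean of the other 5 libraries, where 12.3% of all genes tested were. With 1 library against 5 no exact permutation test can go below p = 0.167, so this is a description of 1 library and not a test of a time.

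**Figure D2:**
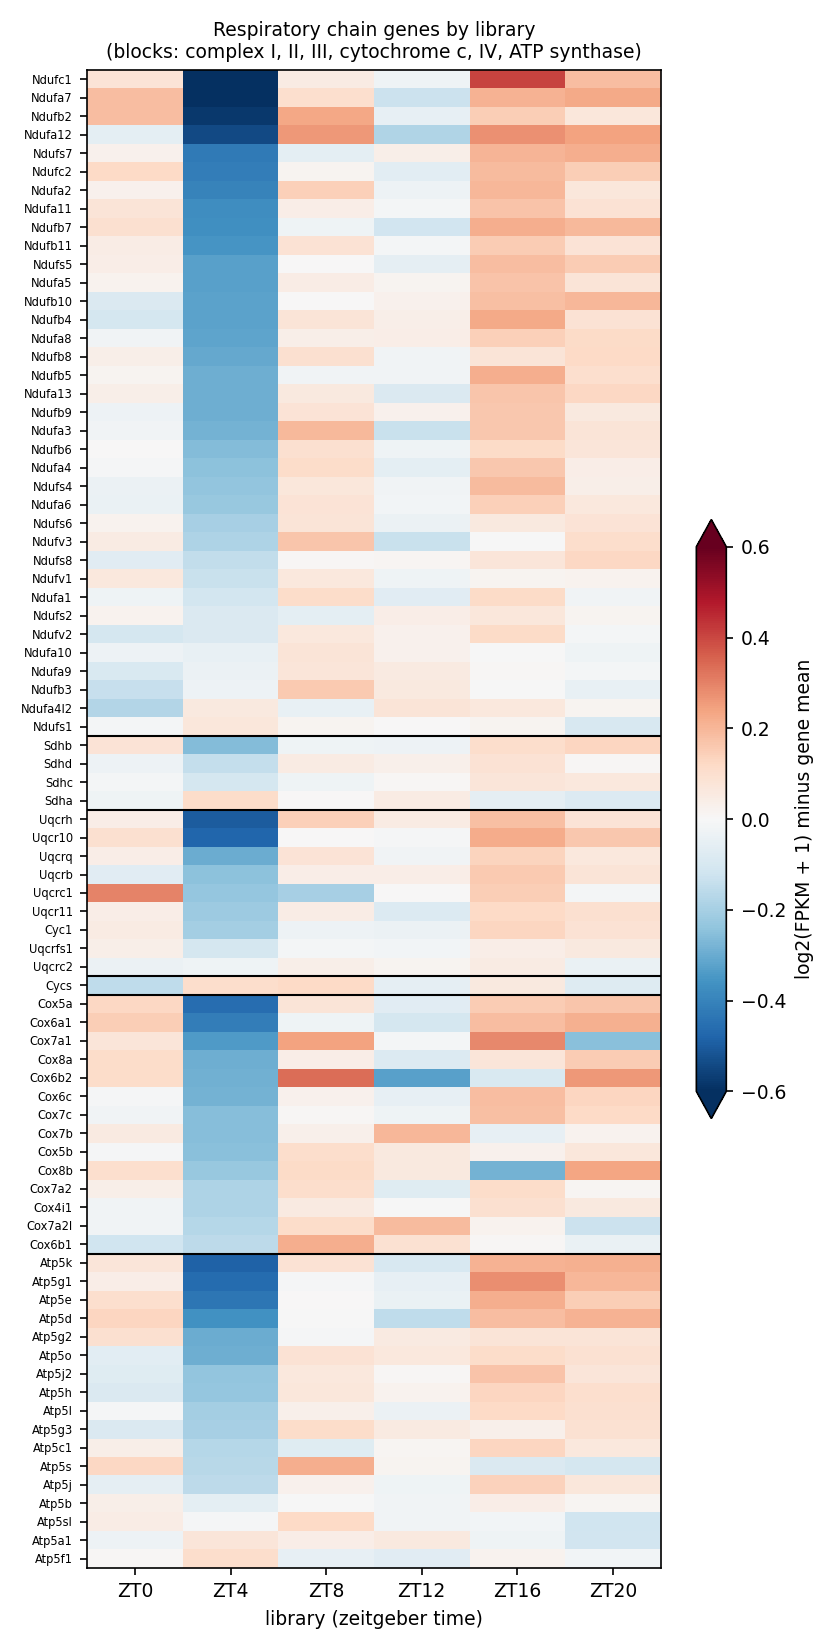
Each line is 1 of the 81 tested genes and each column 1 library; colour gives log2(FPKM + 1) minus the mean of that gene, blue low and red high, with the scale ending at 0.6 either way. The ZT4 column is blue for most genes in every block but cytochrome c, and the few exceptions, such as Sdha, Cycs, Atp5a1, Atp5f1 and Ndufs1, stand at the foot of their blocks.

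The complexes did not move by equal amounts. Complex I summed to 4488 FPKM at ZT0, 3816 at ZT4, 4741 at ZT8, 4431 at ZT12, 4930 at ZT16 and 4724 at ZT20, which puts ZT4 at 81.8% of the mean of the other times (4663 ± 203 FPKM, SD, n = 5 libraries). Complex III at ZT4 stood at 80.1% of its mean at the other times (1914 against 2388 ± 90.0 FPKM, SD, n = 5), and complex IV at 80.2% (3513 against 4381 ± 124 FPKM, SD, n = 5). These 3 complexes thus stood at about the same share. ATP synthase stood at 89.5% (6008 against 6717 ± 155 FPKM, SD, n = 5). Its sum holds the abundant Atp5b, at 95.4%, and Atp5a1, at 106%. The median of its 17 genes stood at 84.4%, and those of complexes I, III and IV at 78.0%, 81.4% and 79.6%. Complex II stood at 95.4% (835 against 875 ± 10.3 FPKM, SD, n = 5). Its sum holds the abundant Sdha, which was highest at ZT4, and the median of its 4 genes stood at 90.1%. Cycs, cytochrome c, was above its mean at the other times, at 109%.

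**Figure D3:**
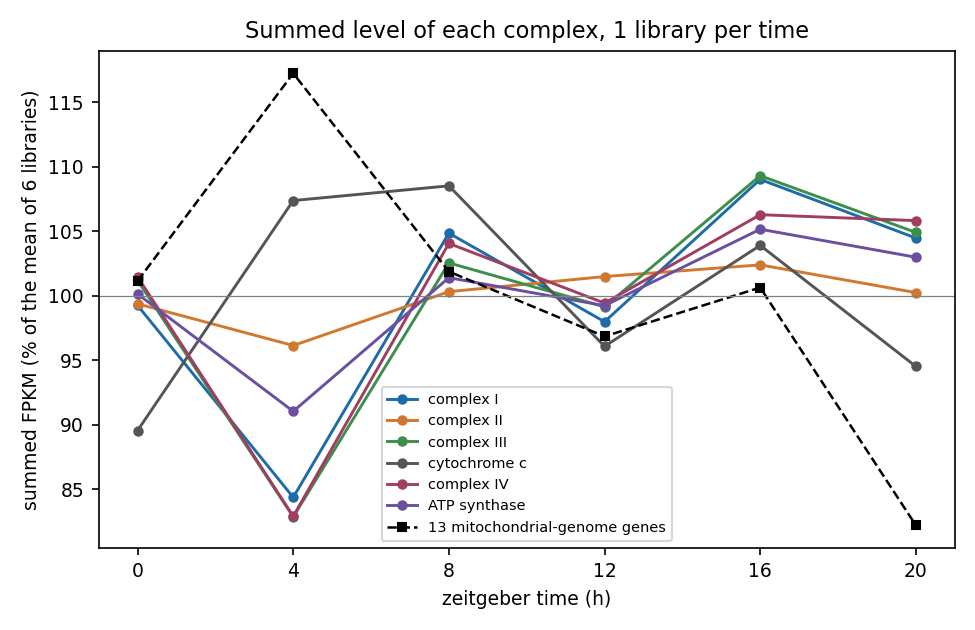
Summed FPKM of the nuclear genes of each complex at each time, as a percentage of the mean of the 6 libraries (1 library per time), with the summed 13 protein genes of the mitochondrial genome as a dashed line. Complexes I, III and IV lie at 81.8%, 80.1% and 80.2% of their mean at the other times in the ZT4 library, complex II lies nearest to its mean of the 4 complexes and ATP synthase, and the mitochondrial-genome sum is at its highest there.

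Outside ZT4 the members varied less than with ZT4 included. The ratio of the highest to the lowest of the other 5 libraries had a median of 1.17 over the members and of 1.30 over all genes tested. With ZT4 included the medians were 1.33 and 1.36. The members were not matched to other genes by level here, so the lower ratio is not read as a trait of the chain. ZT16 held the highest value of 44 of the 81 members, where it did so for 16.6% of all genes tested, and ZT8 and ZT20 held the highest of 14 each. The median member lay 0.13 above its gene mean at ZT16 and 0.08 above at ZT20 on the log2 scale, and 0.24 below at ZT4. Over the members alone, 81% of the variance fell on 1 component, on which ZT4 (-0.85) lay opposite ZT16 (0.39) and ZT20 (0.28).

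A wave of 24 h was fitted to each gene with limma, and none of the 81 members passed an adjusted p of 0.05, a threshold that 0.283% of all genes tested passed. At an unadjusted p under 0.05 there were 5 of the 81 (6.17%), namely Ndufs7, Ndufb10, Ndufb4, Ndufb5 and Atp5g1, where 19.1% of all genes tested were below it. The difference between these shares was not tested, and its direction was not stable: scaled without the mitochondrial genome, 15 members (18.5%) and 18.3% of all genes tested were below it. The median amplitude (the height of the fitted peak above the mean in log2 units) was 0.13, as it was over all genes tested. The fitted peaks fell between ZT14 and ZT18 in 54 of the 81 (66.7%), against 22.1% of all genes tested. Between ZT2 and ZT6 they fell in none of the 81, against 17.2% of all genes tested. In such a fit a low at ZT4 alone puts the peak at ZT16, on the opposite side of the cycle. These counts of peaks are therefore not a result separate from the ZT4 low. The count at an unadjusted p under 0.05 rested on single libraries: it was 2 without ZT4, 8 without ZT0, 0 without ZT16, 0 without ZT20 and 45 without ZT8, the last being 55.6% against 17.6% of all genes tested in the same fit. With 5 libraries the adjusted count over all 12709 genes was itself only 0 to 3, so the 0 of 81 members in those fits says nothing about the members. By the exact permutation test over the 60 circular orders of the libraries, 1 member, Sdhc, reached the smallest p the design allows (0.0167), as did 4.02% of all genes tested, and the smallest Benjamini-Hochberg adjusted value over all genes tested was 0.401.

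Complex I had the deepest ZT4 values. Ndufa4 was the most abundant gene of the group, with 518 FPKM at ZT0, 439 at ZT4, 561 at ZT8, 499 at ZT12, 582 at ZT16 and 534 at ZT20. Ndufb9, an accessory subunit of the membrane arm, had 307, 256, 332, 320, 351 and 327 FPKM at the same times in order. Ndufa1, an X-linked accessory subunit needed for assembly, had 297, 280, 326, 288, 327 and 298 FPKM. In all 3 the ZT4 library was lowest and the ZT16 library highest, although for Ndufa1 ZT4 was close to ZT12. The lowest of the tested genes was Ndufa4l2, a paralog of Ndufa4 known to be induced in hypoxia, with 2.08, 2.62, 2.37, 2.68, 2.63 and 2.52 FPKM. Its summed level was lowest at ZT0 and did not share the ZT4 low. Its main transcript, with 80.8% of the level, had 1.72 FPKM at ZT4 against 1.73 to 2.37 at the other times.

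Ndufs7 (ENSMUSG00000020153) is a core subunit that carries the last iron-sulfur cluster before ubiquinone. It had 86.7 FPKM at ZT0, 63.1 at ZT4, 81.7 at ZT8, 87.2 at ZT12, 98.2 at ZT16 and 99.0 at ZT20, a low at ZT4 and a plateau at ZT16 and ZT20. Its limma amplitude was 0.27 ± 0.07 (SE) with a fitted peak at ZT17.1 ± 0.96 h (SE), and its adjusted p of 0.196 was the smallest of the members. Its exact permutation p was 0.0333 (0.401 when adjusted over all genes tested). Ndufb10 (ENSMUSG00000040048), an accessory subunit of the membrane arm, had 154, 131, 164, 167, 186 and 189 FPKM in the same order, with an amplitude of 0.22 ± 0.06 (SE), a fitted peak at ZT16.4 and a limma adjusted p of 0.207. Neither gene passed the threshold. The main transcript of Ndufb10 held 92.1% of its level and was lowest at ZT0. It had 110 FPKM at ZT0, 125 at ZT4 and 160 to 179 at later times. A transcript of 834 bases had 38.8 FPKM at ZT0 against 1.23 to 5.63 at the other times. With the most abundant transcript alone, the limma amplitude of Ndufb10 was 0.31, with a fitted peak at ZT14.5 and an adjusted p of 0.257.

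The promoters of Ndufs7 and Ndufb10 are shown because these had the smallest p among the members. On GRCm38, Ndufs7 is a protein-coding gene of the plus strand at chr10:80249121-80256794 and Ndufb10 one of the minus strand at chr17:24722060-24724478. The sequences are the RefSeq windows of 300 bases (GRCm38.p6; 250 before the start site to 50 after it) at chr10:80249199-80249498 and chr17:24724374-24724673, each written 5′ to 3′ on the strand of its gene. Capitals mark a match to the core AAGATGGC of YY1, a factor known to act at many mitochondrial genes.
Ndufs7: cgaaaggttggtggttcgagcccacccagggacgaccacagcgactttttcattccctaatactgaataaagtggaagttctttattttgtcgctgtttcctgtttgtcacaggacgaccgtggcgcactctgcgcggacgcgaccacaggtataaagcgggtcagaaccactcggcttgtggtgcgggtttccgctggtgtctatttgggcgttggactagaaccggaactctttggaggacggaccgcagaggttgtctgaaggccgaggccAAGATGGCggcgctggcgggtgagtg
Ndufb10: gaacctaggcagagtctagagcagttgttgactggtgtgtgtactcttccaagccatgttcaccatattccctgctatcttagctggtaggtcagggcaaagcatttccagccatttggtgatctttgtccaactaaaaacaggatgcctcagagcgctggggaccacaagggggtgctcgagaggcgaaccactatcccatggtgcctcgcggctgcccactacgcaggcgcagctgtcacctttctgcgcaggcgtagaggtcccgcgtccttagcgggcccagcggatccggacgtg
In Ndufs7 the match begins 25 bases after the start site, and none of the 5 motifs searched was found in the Ndufb10 window. Of the 86 members 70 had a RefSeq window, 76 windows in all, and each motif was searched on both strands. The NRF1 core GCGCATGC, after the factor best known for respiratory genes, was in 14.5% of member windows, against 5.06% of the windows of all genes tested and 2.71% of the 32851 windows in the table. The YY1 core AAGATGGC was in 15.8%, against 4.57% and 2.75%. The ERR core AAGGTCA, bound by the estrogen-related receptors, was in 10.5%, against 3.37% and 4.72%, and the ETS core CCGGAAG, bound by GABPA, was in 21.1%, against 17.6% and 8.86%. The clock-factor E-box CACGTG was in 11.8%, against 10% of tested windows and 7.15% of all. Such matches describe letters in a window and not binding, and none of the 5 motifs contains another.

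Ndufc1, a small membrane subunit, had the deepest ZT4 value among the members, with 40.6 FPKM at ZT0, 23.4 at ZT4, 39.6 at ZT8, 37.6 at ZT12, 51.2 at ZT16 and 43.7 at ZT20. ZT4 was at 54.9% of the mean of the other libraries (42.5 ± 5.30 FPKM, SD, n = 5), and its limma adjusted p for a wave was 0.270. Its transcripts differed in this. The transcript of 315 bases had 9.93 FPKM at ZT4 against 16 to 28.8 at the other times, and one of 311 bases was listed at 0 at ZT4 against 3.65 to 6.65. The transcript of 1249 bases had 13.2 FPKM at ZT4 against 14.9 to 18.9. The low of Ndufc1 thus came mostly from its 2 short transcripts. Other accessory subunits followed, with Ndufa7 at 31.9 FPKM at ZT4 against 44.4 to 57.1 at the other times, and Ndufb2 and Ndufa12 at 60.5% and 62.8% of their means at the other times. By contrast Ndufs1, the largest core subunit and a carrier of iron-sulfur clusters, had 137, 145, 140, 138, 139 and 129 FPKM and was highest at ZT4.

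Ndufs3 (ENSMUSG00000005510, protein coding, chr2:90894634-90904827 on the minus strand of GRCm38), a core subunit that complex I needs, was listed at 0 in every library but ZT0, where it had 0.0988 FPKM. Its neighbours in the same locus of the table, Kbtbd4, Gm17661 and Ptpmt1, were listed at 0 or at most 0.0207 FPKM. A listed 0 can be a failed estimate, and no level of Ndufs3 is drawn from it. The sums of complex I given here hold almost nothing from Ndufs3.

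Complex II, succinate dehydrogenase, also belongs to the TCA cycle. Sdha, the flavoprotein that binds succinate, had 317 FPKM at ZT0, 348 at ZT4, 323 at ZT8, 334 at ZT12, 311 at ZT16 and 305 at ZT20, and was highest at ZT4. Sdhb, its iron-sulfur partner and the least abundant of the 4, had 144, 114, 134, 133, 147 and 149 FPKM and was lowest at ZT4, at 80.3% of its mean at the other times. The catalytic pair thus stood on opposite sides of their means in that library. The anchor Sdhc had 152, 143, 151, 154, 161 and 160 FPKM, and the anchor Sdhd 250, 231, 264, 260, 270 and 256 FPKM. Both anchors, as summed transcripts, were lowest at ZT4 and highest at ZT16. The main transcript of Sdhc, of 815 bases, was instead lowest at ZT0, with 93.65 FPKM against 96.75 at ZT4. Its transcript of 3171 bases had 44.4 FPKM at ZT4 against 48.7 to 56.2 at the other times. Sdhb had a limma amplitude of 0.15 ± 0.06 (SE) and an adjusted p of 0.329. Sdhc had the exact permutation p of 0.0167 but a limma amplitude of 0.08 ± 0.04 (SE) and an adjusted p of 0.455. With its most abundant transcript alone, the amplitude of Sdhc was 0.067 and the limma adjusted p 0.593. The exact permutation test was run on summed transcripts only.

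In complex III the ZT4 low was deepest in small accessory subunits. Uqcrh, the hinge protein that holds cytochrome c1, had 373 FPKM at ZT0, 256 at ZT4, 401 at ZT8, 375 at ZT12, 412 at ZT16 and 384 at ZT20. Uqcr11 had 376, 314, 376, 344, 397 and 390 FPKM. Uqcrb, which lies at a ubiquinone site, had 340, 301, 367, 366, 399 and 376 FPKM. In each the ZT4 value lay below all others and the ZT16 value above all others. Uqcr10 had 295, 198, 277, 276, 323 and 310 FPKM, a ZT4 value at 67.0% of its mean at the other times. The limma amplitude of Uqcr10 was 0.26 ± 0.09 (SE) with an adjusted p of 0.288, and that of Uqcrb was 0.16 ± 0.05 (SE) with an adjusted p of 0.270. Of the redox subunits, Uqcrfs1, the Rieske protein, ranged from 244 FPKM at ZT4 to 273 at ZT20, a ratio of 1.12. Cyc1, cytochrome c1, ranged from 177 at ZT4 to 223 at ZT16, a ratio of 1.26 like that of Uqcr11.

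The 2 core proteins of complex III were listed at unlike levels. Uqcrc2 had 239 FPKM at ZT0, 240 at ZT4, 251 at ZT8, 248 at ZT12, 254 at ZT16 and 239 at ZT20. Uqcrc1, its partner in the complex, had 12.6, 8.43, 8.62, 10.1, 11.2 and 9.97 FPKM, and 98.4% of this was 1 transcript of 1653 bases. The complex holds both proteins, and a value this far below that of a partner can be a failed or split estimate, so no difference in expression between the 2 genes is drawn from it. Cycs, the carrier between complexes III and IV, had 163, 195, 197, 174, 189 and 172 FPKM, was lowest at ZT0 and had a limma adjusted p of 0.571.

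In complex IV the ubiquitous isoforms held nearly all of the level. Cox4i1 had 694 FPKM at ZT0, 620 at ZT4, 732 at ZT8, 704 at ZT12, 754 at ZT16 and 733 at ZT20. Cox8a, a small membrane subunit, had 723, 547, 690, 633, 706 and 745 FPKM. Cox6c had 497, 410, 509, 482, 568 and 547 FPKM. All 3 were lowest at ZT4, by a wider margin in Cox8a than in Cox4i1. The locus that the table gives for Cox4i1 spans those of many other symbols, so its value may hold reads of overlapping genes. Cox7c had 261, 221, 266, 260, 300 and 287 FPKM with a limma amplitude of 0.17 ± 0.06 (SE) and an adjusted p of 0.280. Cox6a1 had 511, 345, 454, 429, 524 and 535 FPKM with an amplitude of 0.24 ± 0.09 (SE) and an adjusted p of 0.297. Cox5a, a subunit on the matrix side, had the deepest ZT4 value of complex IV, at 68.2% of its mean at the other times.

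The isoforms known from other tissues were low or listed at 0. Cox4i2, the isoform known from lung, had a mean of 0.344 FPKM against 706 for Cox4i1. Cox6a2, the heart and skeletal muscle isoform, had 0.252 FPKM against 466 for Cox6a1. Among subunit 7a genes, the muscle and heart isoform Cox7a1 had a mean of 12.2 FPKM, above that of Cox6a2, while Cox7a2 had 202 and Cox7a2l, a supercomplex assembly factor, 117. The muscle isoform Cox8b was at the edge of the filter, with 1.43, 0.939, 1.46, 1.37, 0.866 and 1.68 FPKM from ZT0 to ZT20. Of the isoforms known from testis, Cox6b2 had a mean of 5.04 FPKM against 466 for Cox6b1, spread over several transcripts of which the largest held 34.0%, and Cox7b2 and Cox8c were listed at 0 in every library. Of the 5 testis markers 4 were listed at 0 in every library, and none of the 8 muscle markers reached a mean of 1 FPKM. The brown fat marker Ucp1 was also listed at 0.

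In ATP synthase the large catalytic subunits varied little. Atp5b had 2041 FPKM at ZT0, 1918 at ZT4, 1989 at ZT8, 1964 at ZT12, 2048 at ZT16 and 2012 at ZT20. Atp5a1, the alpha subunit, had 931, 997, 976, 990, 932 and 878 FPKM and was highest at ZT4. Atp5b was lowest at ZT4, but at 95.4% of its mean at the other times. The small subunits of the catalytic head and its stalk stood lower at ZT4: Atp5d, subunit delta, had 293, 208, 268, 241, 305 and 311 FPKM, and Atp5e, subunit epsilon, had 240, 166, 225, 218, 260 and 248 FPKM. Atp5c1, the rotating gamma subunit, had 360, 311, 333, 354, 384 and 367 FPKM, with a limma amplitude of 0.13 ± 0.04 (SE), an adjusted p of 0.289 and an exact permutation p of 0.05 (0.413 adjusted over all genes tested). Atp5k, subunit e of the membrane part, was at 66.6% of its mean at the other times. Atp5s, named as a coupling factor, was the lowest tested, with 8.87, 7.07, 9.53, 8.16, 7.54 and 7.42 FPKM.

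Subunit c, which forms the proton-carrying ring, is encoded by 3 genes with the same mature protein. Atp5g3 had 602 FPKM at ZT0, 558 at ZT4, 691 at ZT8, 665 at ZT12, 654 at ZT16 and 681 at ZT20. Atp5g1 had 152, 108, 148, 143, 180 and 171 FPKM, and Atp5g2 had 74.0, 56.1, 68.9, 71.9, 73.1 and 73.1 FPKM. Atp5g3 thus supplied most of the messenger at every time, with 72.1% to 77.3% of the sum, against 14.9% to 19.9% for Atp5g1 and 7.59% to 8.94% for Atp5g2. The sum was 722 FPKM at ZT4 and 829 to 925 FPKM at the other times. The share of Atp5g1 was lowest at ZT4 and that of Atp5g3 highest. Atp5g1 is the gene known from brown fat as the regulated member of the trio, and had a limma amplitude of 0.28 ± 0.08 (SE), a fitted peak at ZT17.2 and an adjusted p of 0.236.

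The exceptions to the ZT4 low were few. Summed over transcripts, the 13 tested members with their lowest value elsewhere were Ndufa4l2, Ndufa9, Ndufb3, Ndufs1, Ndufv2, Sdha, Uqcrc2, Cycs, Cox6b2, Cox8b, Atp5a1, Atp5f1 and Atp5sl. Those above their mean at the other times were Sdha (109.5%), Atp5f1 (109%), Cycs (109%), Ndufa4l2 (106.8%), Atp5a1 (106%) and Ndufs1 (105.8%). For Atp5f1, a stalk subunit, this rested on a minor transcript of 1311 bases with 95.7 FPKM at ZT4, 59.1 at ZT8 and 59.1 at ZT12, listed at 0 at ZT0 and ZT20. Its main transcript, with 82.1% of the level, was lowest at ZT4, with 240.7 FPKM against 261.8 to 318.1 at the other times. Of the 6, Atp5a1, Ndufs1, Sdha and Cycs have transcripts of over 2000 bases. As in Atp5f1, the most abundant transcript of Ndufa4l2, Uqcrc2 and Atp5sl was lowest at ZT4. For Uqcrc2 it had 232.3 FPKM there against 236.7 to 250.4 at the other times. The reverse held for Ndufb10, Sdhc and Atp5s, whose most abundant transcript was lowest at another time. By that transcript alone, 69 of the 81 were lowest at ZT4, in place of 68.

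Transcript length moved with the ZT4 values. Over the 81 members the deviation at ZT4 was higher with greater log2 length of the most abundant transcript, with Pearson's r = 0.66 and Spearman's rho = 0.57 across genes, which share 1 library and are not independent. Over all genes tested r was 0.25 and rho 0.34. The members are short, with a median of 758 bases against 2518 bases over all genes tested. Of the 26 members with at most 600 bases, 24 (92.3%) were lowest at ZT4 and the median stood at 73.0% of the other times, against 39.6% and 83% for the 940 other genes of that length. In the band of 601 to 1000 bases, 26 of 28 members were lowest at ZT4, against 47.4% of other genes. Among the 21 members of 1001 to 2000 bases it was 16, or 76.2%, against 37.7% of others, and among the 6 longer members it was 2, against 16.4% of others.

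The bands were also set side by side for abundant genes. Among genes of at most 600 bases that averaged 50 FPKM or more, the median ZT4 level was 78.2% of the other times for the 19 members and 80.6% for the 119 other genes. In the band of 601 to 1000 bases it was 79.3% for 26 members and 82.6% for 194 other genes. The shares lowest at ZT4 were 100% of members and 61.3% of other genes in the shorter band, and 96.2% and 73.2% in the longer. Abundant short genes outside the respiratory chain were thus also low at ZT4, and whether their medians or shares differ from those of the members was not tested. After the trend of each library on length was removed, the median member lay 0.11 below its mean at ZT4 on the log2 scale, in place of 0.24, and 47 of 81 (58.0%) were lowest there, against 19.3% of all genes tested. Whether length, RNA quality or time of day accounts for the ZT4 values was not tested.

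**Figure D4:**
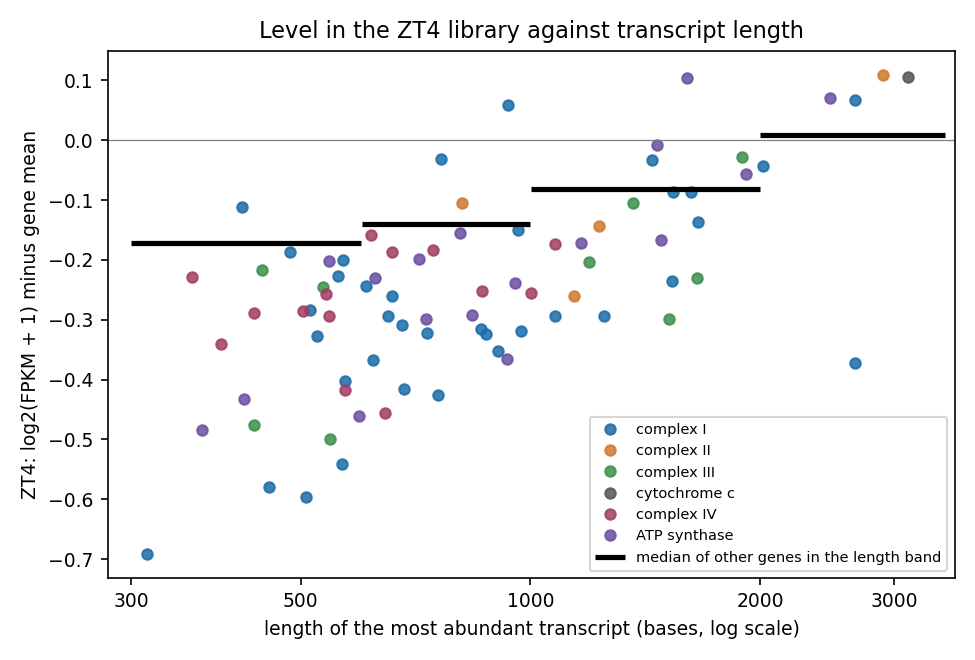
Deviation of each of the 81 genes at ZT4 (log2(FPKM + 1) minus the gene mean) against the length of its most abundant transcript in bases (log scale), coloured by complex; black bars give the median of the other genes tested in 4 length bands, drawn over the plotted range. Short genes such as Ndufc1 (315 bases) lie lowest, and of the 6 genes above 0, Atp5a1, Ndufs1, Sdha and Cycs have 2471 to 3123 bases, Atp5f1 has 1604 and Ndufa4l2 has 934.

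The genes whose profile was most like the mean of the members were not mitochondrial. Among 8401 genes outside the rule that averaged 5 FPKM or more, the highest Pearson's r over the 6 libraries were those of Rpl19 (0.999), Gm12338 (0.998), Wbp1 (0.998), Tonsl (0.997) and Rpl31 (0.996). Rpl19 and Rpl31 encode proteins of the large ribosomal subunit. Rpl19 had 216 FPKM at ZT0, 168 at ZT4, 225 at ZT8, 211 at ZT12, 236 at ZT16 and 230 at ZT20, the same order of libraries as the summed members. With 6 points and many candidates a high r is a description only.

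The 13 protein genes of the mitochondrial genome, which supply the core of complexes I, III and IV and the channel of ATP synthase, were not low at ZT4 as a group. They summed to 161100 FPKM at ZT4, 113000 at ZT20 and 133100 to 140000 at the other times. mt-Nd5, a proton-pumping subunit of complex I, had 9823 FPKM at ZT0, 14600 at ZT4, 10060 at ZT8, 9992 at ZT12, 8456 at ZT16 and 6241 at ZT20, with a limma adjusted p of 0.239. mt-Atp6, the channel subunit of ATP synthase, had 209, 193, 201, 157, 151 and 135 FPKM with an adjusted p of 0.214, and mt-Co2, a core subunit of complex IV, had 297, 305, 238, 231, 268 and 275 FPKM with an adjusted p of 0.238. The means ran from 63.8 FPKM for mt-Nd3, 174 for mt-Atp6 and 269 for mt-Co2 to 44410 for mt-Co1, so the sum rests mostly on the abundant genes. Values this far below those of the same genome can be failed or split estimates, and no difference in level between these genes is drawn from them. No gene of the 13 passed the adjusted threshold, which 0.283% of all genes tested passed. Of the 13, 4 were below an unadjusted p of 0.05, where 19.1% of all genes tested were. The ratio of mitochondrial to nuclear FPKM was therefore highest at ZT4: 20.9 in complex I against 11.7 to 15.5 at the other times, 15.0 in complex III against 7.87 to 10.7, and 14.8 in complex IV against 8.57 to 10.6. In complex IV nearly all of the mitochondrial sum was mt-Co1. In ATP synthase the ratio was 0.150 at ZT4, 0.134 at ZT16 and 0.0637 to 0.106 at the other times, and it rests on the low listed values of mt-Atp6 and mt-Atp8. FPKM values share 1 total, and the mitochondrial genome took 28.6% of it at ZT4, 22.2% at ZT20 and 24.6% to 25.2% elsewhere. Scaled without the mitochondrial genome, the median member was still 0.21 below its mean at ZT4 and 63 of 81 were lowest there, against 19.7% of all genes tested.

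Genes that build or control the chain were described in the same way, without matching them to the members by length. Of the 51 assembly factors, all tested, none passed the adjusted threshold, which 0.283% of all genes tested passed, and 12 were below an unadjusted p of 0.05, where the share over all genes tested was 19.1%. Their median at ZT4 was 0.06 below the gene mean, and 20 of the 51 were lowest there, where 25.8% of all genes tested were. The 3 with the smallest p were Nubpl, which delivers iron-sulfur clusters to complex I, with 8.25, 10.1, 9.21, 8.48, 6.06 and 6.39 FPKM (limma adjusted p = 0.122), Coa7, an assembly factor of complex IV (adjusted p = 0.152), and Sdhaf4, which helps join Sdha to Sdhb (adjusted p = 0.16). Their fitted peaks were at ZT5.78, ZT5.29 and ZT5.45, and none of the 3 passed the threshold. The Nubpl wave rested on the sum of its transcripts, with a limma amplitude of 0.32. With the most abundant transcript alone its amplitude was 0.05, with an adjusted p of 0.861 and a fitted peak at ZT8.55. Between ZT2 and ZT6 lay the fitted peaks of 17.2% of all genes tested and of no member of the chain. Sdha, Ndufs1, Atp5a1 and Atp5f1 nonetheless had their highest value at ZT4.

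Of the 19 transcriptional regulators none passed, and 2 were below an unadjusted p of 0.05. For this list and those that follow, 0.283% of all genes tested passed the adjusted threshold. The share of all genes tested below an unadjusted p of 0.05 was 19.1%. Ppargc1b, a coactivator of mitochondrial genes, had 2.46 FPKM at ZT0, 2.79 at ZT4, 2.30 at ZT8, 1.97 at ZT12, 1.39 at ZT16 and 1.27 at ZT20 (limma adjusted p = 0.176), highest where the chain was lowest. Esrrb and Esrrg, estrogen-related receptors, had adjusted p of 0.228 and 0.303 with fitted peaks at ZT12.7 and ZT6.59. Among the 13 TCA cycle genes none passed and 1, Idh3a, was below an unadjusted p of 0.05; its adjusted p was 0.254, and those of Suclg2 and Mdh2 were 0.312 and 0.387. The median TCA gene lay 0.01 below its mean at ZT4. Among the 14 genes of import and mitochondrial membranes none passed, 2 were below an unadjusted p of 0.05, and the median at ZT4 was 0.05 below the mean; Opa1, which fuses inner membranes, Timm44 of the import motor and the channel gene Vdac2 had adjusted p of 0.206, 0.243 and 0.289. Of 8 tested genes related to the chain but outside the naming rule, 7 were lowest at ZT4, where 25.8% of all genes tested were. Cox17, among the 7, is also counted with the assembly factors. Higd2a, an assembly factor of complex IV, had 242, 165, 208, 212, 258 and 271 FPKM (limma adjusted p = 0.194). For scale, 8 of 18 core clock genes passed the adjusted threshold in the same fit, against 0.283% of all genes tested. Their median amplitude was 1.19, against 0.13 for the members.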

How the data were processed

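Kidney RNA from 6 zeitgeber times was measured in 1 library each. The authors deposited FPKM per Ensembl transcript, with transcript length in bases, per the file headers. The submitters' processing notes name bcl2fastq 2.20 and mm9, while the sources used here name no aligner or quantifier. Of the 360 transcripts of the members, 348 lay inside the table's loci on GENCODE M21 (GRCm38), so positions are given on that build. No read counts are held, so depth is unknown and no counting interval is given.

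Transcripts were summed per symbol. The tests used log2(FPKM + 1) of the 12709 genes that averaged 1 FPKM or more, which understates changes of low genes. In R 4.3.3, limma 3.58.1 (eBayes with trend, 3 residual degrees of freedom) fitted a cosine and a sine of 24 h over the 6 libraries, with Benjamini-Hochberg adjustment over all genes tested and a threshold of 0.05. The residual holds differences between mice and departures from a cosine together. An exact permutation test used the 60 circular orders, with 0.0167 as its smallest p. The fit was tested on simulated data. Tables, promoter searches and plots used Python 3.11.15, pandas 2.3.3, numpy 2.4.6 and matplotlib 3.10.9.

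The members and lists were chosen with earlier results of these data known. Named genes are, in each complex, the 3 with the highest mean, the lowest tested and the 2 with the smallest p, all isoform families, the 3 smallest p of each list other than markers, and the 5 genes most like the members. Genes named for their ZT4 value, their exact p or their length, and Ndufs1, Ndufs3, Ndufc1, Uqcrfs1, Cyc1, Uqcrc2, Atp5d, Atp5e and Higd2a, were chosen after their values were seen, as were the ZT4 counts, the length bands and the removal of each library's trend on length. Marker lists not described in the results summed to 147 to 206 FPKM (distal convoluted tubule), 36.9 to 69.0 (endothelial), 25.1 to 33.0 (immune), 42.0 to 58.3 (brown fat, nearly all Fabp4) and 48.7 to 72.5 (liver). Alternatives were the most abundant transcript, a pseudocount of 0.1, no filter, a filter at 5 FPKM, scaling by the median of ratios, scaling without the mitochondrial genome, limma without trend and with robust moderation, and each library left out.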

Additional observations from a re-analysis of the deposited data

How the results depend on the processing

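No member passed an adjusted p of 0.05 under any alternative tried, which shows no stability, since the fits to 5 libraries called 0 to 3 of all genes tested and the fit without a filter called 0. The same holds for the 26 genes followed by name, those with the smallest p in each complex or list, of which none passed in any of 389 alternative values. The count of members below an unadjusted p of 0.05 was 5. It was 8 with the most abundant transcript, 15 with scaling without the mitochondrial genome (18.5%, against 18.3% of all genes tested), 3 without limma's trend and 8 after removal of the length trend, and it ranged from 0 to 45 when 1 library was left out, with 45 without ZT8. The count of all genes past the adjusted threshold was 36. It was 2 with the most abundant transcript, 0 without a filter, 7 without limma's trend and 66 with robust moderation, and it ranged from 0 to 3 when 1 library was left out. The cause of these differences was not tested. The median ZT4 deviation of the members was -0.24 and moved to -0.11 after removal of the length trend. It was -0.25 with the most abundant transcript (69 of 81 lowest at ZT4), -0.21 with median-of-ratios scaling (65 of 81) and -0.21 without the mitochondrial genome (63 of 81). No paired analysis was possible because each time has 1 library and the comparison is a time course without repeated replicate numbers. The unknown depth leaves the counting error of low genes such as Cox8b unmeasured, and 1 library per time leaves the error of each time unmeasured.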
